A study of Homo sapiens with 17 samples.

Results

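The genes described here are 8 genes for secreted glycoproteins that monocytes and macrophages release into the extracellular matrix: CHI3L1, VCAN, FGL2, CRISPLD2, THBS1, SPP1, TIMP1 and MMP9. They are 8 of the 58278 gene identifiers counted in the files. They were chosen by their measured levels, since several of them were strongly higher in MOLM13 cells that had lost HOXA9 or SAFB. Their values in those cells are therefore a description and carry no test. The choice did not use the levels in MEIS1 knockout cells as a criterion, and the members were tested there, although earlier results of all these libraries were known when the list was drawn up.

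MOLM13 is an established human cell line of acute myeloid leukaemia, driven by the fusion oncoprotein MLL-AF9. The 17 RNA-seq libraries form 5 groups, each named for the target of the CRISPR knockout. In the first experiment, 3 libraries came from cells with HOXA9 knocked out (HOXA9_KO), 3 from cells with SAFB knocked out (SAFB_KO) and 3 from cells given a non-targeting control (NT). In the second, 4 libraries came from cells with MEIS1 knocked out (MEIS1_KO) and 4 from the non-targeting control of that experiment (NT_MEIS1ex). Every group carries the MLL-AF9 fusion, controls included. The labels do not say whether a knockout was 1 clone or a pool, or whether a group's libraries were grown apart, so p-values measure only the spread between these libraries, which may be technical.

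HOXA9 is a homeobox transcription factor, MEIS1 its frequent partner on DNA, and SAFB a protein of the nuclear matrix with binding domains for DNA and for RNA. Leukaemias with an MLL fusion keep HOXA9 and MEIS1 high, and loss of either is known to let such cells mature toward monocytes. Maturing monocytes make proteins that leave the cell and act on the matrix around it. Some of these are lectins and proteoglycans that sit in the matrix, some are matricellular proteins that signal through integrins and scavenger receptors, and some are proteases that cut the matrix together with the inhibitors that hold those proteases in check.

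Reads assigned to genes numbered between 36177109 and 42512310 per library in HOXA9_KO, between 30737884 and 44406323 in SAFB_KO and between 39906727 and 67842104 in NT. They numbered between 23264176 and 29918249 in MEIS1_KO and between 26836593 and 33232459 in NT_MEIS1ex. HOXA9 averaged 21.4 ± 0.445 CPM (counts scaled to the effective size of the library) in HOXA9_KO and 40.9 ± 0.969 CPM in NT (SD, n = 3 each), a log2 difference of -0.93 ± 0.05 (SE, adjusted p = 1.44e-20, edgeR). SAFB averaged 20.7 ± 1.42 CPM in SAFB_KO and 38.3 ± 4.07 CPM in NT (SD, n = 3 each), a log2 difference of -0.89 ± 0.07 (adjusted p = 5.93e-14). MEIS1 averaged 11.2 ± 1.10 CPM in MEIS1_KO and 32.4 ± 0.824 CPM in NT_MEIS1ex (SD, n = 4 each), a log2 difference of -1.54 ± 0.07 (adjusted p = 1.03e-09). MEIS1 RNA also fell in the other knockouts, to 16.8 ± 0.816 CPM in HOXA9_KO (log2 difference -1.54, adjusted p = 9.41e-29) and 39.7 ± 1.72 CPM in SAFB_KO (log2 difference -0.31, adjusted p = 3.20e-06), against 49.1 ± 1.06 CPM in NT. Mitochondrial ribosomal RNA took between 31.9 and 35.5% of assigned reads in HOXA9_KO, 24.9 and 27.0% in SAFB_KO and 22.5 and 28.4% in NT. It took at most 0.00941% in MEIS1_KO and 0.000752% in NT_MEIS1ex, so levels are set side by side across the experiments below but not compared. Reads outside genes made up 8.65 to 9.27% in HOXA9_KO, 10.6 to 12.7% in SAFB_KO and 16.4 to 18.1% in NT.

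The cells held little RNA of other cell types that make these proteins. Summed over 8 fibroblast markers, the level was between 0.736 and 2.20 CPM over the 17 libraries. Endothelial markers summed to at most 1.16 CPM, lymphoid markers to at most 3.30 CPM and megakaryocyte and platelet markers to at most 7.97 CPM, with PF4 and PPBP at 0 in all 5 groups. The monocyte markers were uneven: LYZ (lysozyme) averaged 29694 CPM in HOXA9_KO, 12820 CPM in SAFB_KO and 4152 CPM in NT, while CD14 averaged 2.79 CPM, 0.343 CPM and 0.114 CPM in the same groups. CX3CR1, the fractalkine receptor of non-classical monocytes, averaged 4.198 CPM in HOXA9_KO, 8.52 CPM in SAFB_KO and 8.43 CPM in NT. Of the 12 monocyte markers tested, 11 rose and 1 (CX3CR1) fell in HOXA9_KO, and 11 rose and 0 fell in SAFB_KO. Among all genes, 27.6% were called higher and 29.9% lower in HOXA9_KO, and 20.2% and 15.3% in SAFB_KO. Of 6 leukaemic myeloid markers tested, 4 rose and 1 fell in HOXA9_KO, and 4 rose and 2 fell in SAFB_KO. MPO averaged 93.6 CPM in HOXA9_KO, 14.9 CPM in SAFB_KO and 16.8 CPM in NT, and FLT3 averaged 321, 547 and 675 CPM. MRC1, a macrophage receptor, averaged at most 0.0270 CPM in any group. In bulk RNA, more cells of a type and more RNA per cell cannot be told apart, and this holds for every level below.

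CHI3L1 (ENSG00000133048.12, chromosome 1, 203178931 to 203186749 on the minus strand, GRCh38) encodes a chitin-binding lectin without chitinase activity, known as YKL-40 and secreted by macrophages and neutrophils. Its level was 1912, 1942 and 1884 CPM in the HOXA9_KO libraries, 148, 144 and 153 CPM in the SAFB_KO libraries, and 73.8, 73.3 and 76.6 CPM in the NT libraries. The 3 groups did not overlap, and the spread within each was small beside the gaps between them. The ratio of means against NT was 25.7 in HOXA9_KO (log2 fold change 4.68 ± 0.03, SE) and 1.991 in SAFB_KO (log2 fold change 0.99 ± 0.03). HOXA9_KO and SAFB_KO share the NT libraries as control, here and for every gene below.

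VCAN (ENSG00000038427.15, chromosome 5, 83471465 to 83582303, plus strand) encodes versican, a large chondroitin sulfate proteoglycan that binds hyaluronan and is abundant in classical monocytes. It stood at 558, 577 and 562 CPM in HOXA9_KO, at 426, 416.5 and 414 CPM in SAFB_KO, and at 155, 140.1 and 142 CPM in NT. Every SAFB_KO library lay between the HOXA9_KO and the NT libraries. Against NT, the log2 fold change was 1.96 ± 0.03 in HOXA9_KO and 1.52 ± 0.03 in SAFB_KO, or 3.88 and 2.87 as ratios of means.

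FGL2 (ENSG00000127951.6, chromosome 7, 77193371 to 77199848, minus strand) encodes a fibrinogen-related protein that acts as a prothrombinase on macrophages and is also secreted by regulatory T cells. The gene lies within the span of CCDC146 on the opposite strand, without shared exons. Its level was 272, 267 and 272 CPM in HOXA9_KO, 179, 172 and 177 CPM in SAFB_KO, and 50.4, 49.8 and 43.3 CPM in NT. As with VCAN, the groups were separate and SAFB_KO was in the middle. Its log2 fold change against NT was 2.50 ± 0.04 in HOXA9_KO and 1.87 ± 0.04 in SAFB_KO.

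CRISPLD2 (ENSG00000103196.11, chromosome 16, 84819984 to 84920768, plus strand) encodes a secreted protein with LCCL domains that binds bacterial lipopolysaccharide. It was a rare transcript, with 84, 77 and 136 reads in HOXA9_KO, 7, 19 and 17 reads in SAFB_KO, and 11, 3 and 7 reads in NT. In CPM this was 2.78, 2.40 and 3.68 in HOXA9_KO, 0.218, 0.407 and 0.481 in SAFB_KO, and 0.149, 0.0592 and 0.152 in NT. The groups did not overlap, but the SAFB_KO and NT values rest on few reads. Against NT, the log2 fold change was 4.56 ± 0.34 in HOXA9_KO and 1.59 ± 0.43 in SAFB_KO. CRISPLD2 passed the filter on low counts only through the HOXA9_KO libraries.

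Promoter sequence is shown for the genes with the largest HOXA9_KO differences among the 7 members held in the RefSeq promoter table (GRCh38.p14), CHI3L1, CRISPLD2 and FGL2; MMP9 is not shown. Each is the 250 bases before the RefSeq start, read on the gene's own strand, at chr1:203186705-203186954 (minus), chr16:84819735-84819984 (plus) and chr7:77199820-77200069 (minus). Capitals mark matches to the motifs searched.
CHI3L1: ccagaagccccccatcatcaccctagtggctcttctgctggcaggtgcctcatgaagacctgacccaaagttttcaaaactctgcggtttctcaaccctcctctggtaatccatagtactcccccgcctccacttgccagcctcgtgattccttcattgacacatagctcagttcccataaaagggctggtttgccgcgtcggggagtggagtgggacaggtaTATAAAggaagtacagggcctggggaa
CRISPLD2: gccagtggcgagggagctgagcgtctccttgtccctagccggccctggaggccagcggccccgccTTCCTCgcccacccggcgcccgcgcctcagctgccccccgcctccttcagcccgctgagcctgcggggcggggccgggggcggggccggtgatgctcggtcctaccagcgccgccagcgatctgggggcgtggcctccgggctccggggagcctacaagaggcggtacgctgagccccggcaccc
FGL2: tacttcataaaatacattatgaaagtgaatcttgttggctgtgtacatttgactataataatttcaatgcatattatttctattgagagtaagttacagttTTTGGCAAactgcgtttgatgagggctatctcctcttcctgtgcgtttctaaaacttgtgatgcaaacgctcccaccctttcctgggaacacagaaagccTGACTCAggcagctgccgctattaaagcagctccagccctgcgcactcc

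The capitals in CHI3L1 are a TATA box, TATAAA, 27 to 22 bases before the start, a motif found in 10.7% of the 35093 promoters of the same length in the table. In CRISPLD2 they are the reverse complement of GAGGAA, the core bound by the myeloid factor PU.1, 185 to 180 bases before the start. GAGGAA was found in 23.6% of all promoters and, among the members, also in that of THBS1. In FGL2 they are TTTGGCAA, a match on the reverse strand to the C/EBP motif TTGCNNAA, 149 to 142 bases before the start, and TGACTCA, a match to the AP-1 motif TGANTCA, 49 to 43 bases before the start. These motifs were found in 9.05% and 6.57% of all promoters.

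Both strands were searched, and no 2 matches shown overlap. TGATTTAT, a motif of HOXA9 with PBX (0.752% of all promoters), TGACAG, a motif of MEIS1 (13.03%), and the interferon-stimulated response element (3.02%), had no match in the 7 windows. The absence says only that these letters are not in these windows. The 3 promoters differ in base composition, with a GC content of 54.0% in CHI3L1, 77.6% in CRISPLD2 and 42.0% in FGL2, around a median of 58.0% over all promoters.

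THBS1 (ENSG00000137801.10, chromosome 15, 39581079 to 39599466, plus strand) encodes thrombospondin-1, a matricellular protein that binds CD36 and CD47 and activates latent TGF-beta. Its level was 1.46, 0.995 and 1.30 CPM in HOXA9_KO, 2.05, 1.29 and 1.36 CPM in SAFB_KO, and 2.03, 1.72 and 1.26 CPM in NT. The groups overlapped, with a log2 fold change of -0.43 ± 0.23 in HOXA9_KO and -0.13 ± 0.22 in SAFB_KO. The SAFB_KO value changed sign in 2 of 17 alternative settings.

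SPP1 (ENSG00000118785.13, chromosome 4, 87975650 to 87983426, plus strand) encodes osteopontin, a phosphoprotein that binds integrins and CD44. It was counted 33, 19 and 16 times in HOXA9_KO, 1, 10 and 7 times in SAFB_KO, and 54, 39 and 24 times in NT. In CPM this was 1.09, 0.591 and 0.432 in HOXA9_KO, 0.0311, 0.214 and 0.198 in SAFB_KO, and 0.730, 0.770 and 0.521 in NT. SPP1 was the only member with every SAFB_KO library below every NT library, whereas HOXA9_KO and NT overlapped. Its log2 fold change was -2.10 ± 0.46 in SAFB_KO. In HOXA9_KO it was 0.04 ± 0.38, and -0.41 without HOXA9_KO replicate 1.

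TIMP1 (ENSG00000102265.11, chromosome X, 47582313 to 47586789, plus strand) encodes an inhibitor of matrix metalloproteinases that also binds the surface protein CD63. The gene lies within the span of SYN1 on the opposite strand, without shared exons. Its level was 72.7, 69.9 and 78.0 CPM in HOXA9_KO, 43.9, 42.6 and 43.6 CPM in SAFB_KO, and 43.7, 38.0 and 40.6 CPM in NT. Only the HOXA9_KO libraries stood apart from NT, with a log2 fold change of 0.85 ± 0.05. In SAFB_KO the difference was 0.09 ± 0.05, and it turned to -0.05 with scaling to the reads of nuclear protein-coding genes.

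MMP9 (ENSG00000100985.7, chromosome 20, 46008908 to 46016561, plus strand) encodes gelatinase B, the metalloproteinase whose proenzyme TIMP1 binds. SLC12A5-AS1 covers 18.4% of its exon bases on the opposite strand, and no source used here gives the strand setting of the counts, so reads of this pair may not be separated. The same holds for 3.05% of the exon bases of VCAN, 3.82% of CRISPLD2 and 7.58% of THBS1. MMP9 had 52, 57 and 64 reads in HOXA9_KO, 28, 19 and 8 reads in SAFB_KO, and 4, 12 and 6 reads in NT. In CPM this was 1.72, 1.77 and 1.73 in HOXA9_KO, 0.871, 0.407 and 0.226 in SAFB_KO, and 0.0541, 0.237 and 0.130 in NT. All HOXA9_KO libraries were above all NT libraries, while SAFB_KO overlapped NT by 1 library. As log2 fold changes these were 3.69 ± 0.41 in HOXA9_KO and 1.87 ± 0.47 in SAFB_KO. Single libraries weighed on both: without NT replicate 2 they were 4.31 in HOXA9_KO and 2.49 in SAFB_KO, and without SAFB_KO replicate 1 the SAFB_KO value was 1.28.

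**Figure D1:**
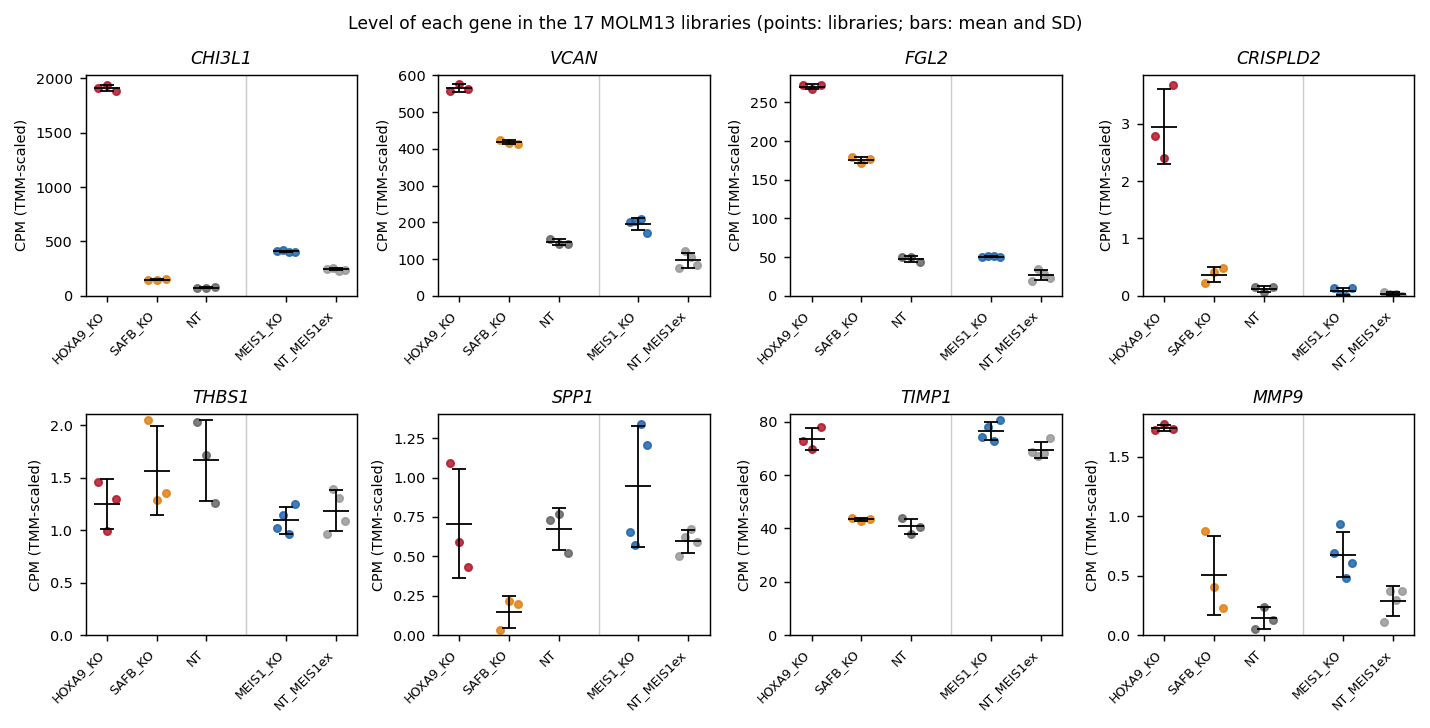
Level of each of the 8 genes in CPM (y axis, each panel with its own scale and starting at 0) in the 17 libraries by group (x axis). Points are libraries and bars are the mean and SD. CHI3L1, VCAN, FGL2, CRISPLD2, TIMP1 and MMP9 are above NT in every HOXA9_KO library, and THBS1 is not.

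In HOXA9_KO, 6 of the 8 genes had every library above every NT library, 0 had every library below, and 2 overlapped. Of all 18876 genes in the fit, 29.1% lay wholly above NT and 33.5% wholly below. In SAFB_KO, 4 of the 8 were wholly above NT, 1 wholly below and 3 overlapped, against 24.1% and 22.3% of all genes. The members' median log2 fold change was 2.23 in HOXA9_KO, where the median of all genes was -0.07, and 1.26 in SAFB_KO, where it was -0.02. Since these comparisons chose the genes, nothing is read from the counts. Beside them, the interferon-response genes moved strongly: their summed level was 127 to 141 CPM in HOXA9_KO, 246 to 277 CPM in SAFB_KO and 1145 to 1580 CPM in NT, and 12 of 12 fell in each knockout. Among all genes, 29.9% were called lower in HOXA9_KO and 15.3% in SAFB_KO. The part of the interferon-response genes in the members' differences, and that of the shares of mitochondrial ribosomal RNA and of reads outside genes, was not tested.

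The MEIS1 knockout is the comparison that the choice of members did not use. Of the 8 genes, 6 passed the filter on low counts through the NT_MEIS1ex libraries alone, and 3 of these rose in MEIS1_KO: CHI3L1, VCAN and FGL2. MMP9 passed only through the MEIS1_KO libraries, where it is high, so it is described below and not counted among them, and CRISPLD2 did not pass. Of all 15744 genes in the fit, 4.97% were called higher at an adjusted p under 0.05 and 3.84% lower. The median log2 fold change of the 6 was 0.69, beside a median of 0.0018 over all genes. Of the 6, CHI3L1, VCAN and FGL2 were above every NT_MEIS1ex library in every MEIS1_KO library, and TIMP1, SPP1 and THBS1 overlapped. Of all genes in the fit, 8.43% lay wholly above NT_MEIS1ex and 7.28% wholly below.

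CHI3L1 read 412, 417, 402 and 403 CPM in MEIS1_KO, against 249.6, 254, 232 and 239 CPM in NT_MEIS1ex. The lowest MEIS1_KO library was well above the highest NT_MEIS1ex library. The log2 fold change was 0.75 ± 0.05 (SE, adjusted p = 2.57e-08, edgeR), a ratio of means of 1.68.

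VCAN read 201, 202, 209 and 172 CPM in MEIS1_KO, against 76.4, 121, 106 and 83.8 CPM in NT_MEIS1ex. FGL2 read 49.9, 51.7, 50.8 and 49.7 CPM in MEIS1_KO, against 19.2, 34.0, 28.4 and 23.3 CPM in NT_MEIS1ex. For both genes the control libraries were the more scattered group, and NT_MEIS1ex replicates 1 and 4 were the lowest for each. VCAN rose by 1.02 ± 0.15 on the log2 scale (adjusted p = 0.00505, ratio of means 2.03) and FGL2 by 0.95 ± 0.15 (adjusted p = 0.00505, ratio of means 1.93). CHI3L1, VCAN and FGL2 stayed past the threshold in 16 of 16 alternative settings.

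MMP9 had 21, 26, 13 and 14 reads in MEIS1_KO and 3, 10, 8 and 12 reads in NT_MEIS1ex. In CPM this was 0.689, 0.931, 0.484 and 0.603 in MEIS1_KO, and 0.107, 0.367, 0.298 and 0.373 in NT_MEIS1ex. The groups did not overlap, and the log2 fold change was 1.23 ± 0.34. All 4 MEIS1_KO libraries and 1 of 4 NT_MEIS1ex libraries reached the level of the filter, so MMP9 entered the fit only through its level in MEIS1_KO, and its adjusted p of 0.0313 is given as a description. With no filter the adjusted p was 0.00948. It was above 0.05 without MEIS1_KO replicate 1 (adjusted p = 0.0674) or 2 (0.121), and without NT_MEIS1ex replicate 1 (0.0638), 3 (0.0712) or 4 (0.0509), with adjusted p between 0.00948 and 0.121 over the 14 alternatives that tested it.

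TIMP1 read 74.4, 77.9, 72.9 and 80.8 CPM in MEIS1_KO and 68.6, 67.1, 68.1 and 73.7 CPM in NT_MEIS1ex. The groups overlapped by 1 library, the log2 fold change was 0.14 ± 0.05, and the adjusted p of 0.106 missed the threshold; with libraries scaled to nuclear protein-coding reads it was 0.0411. SPP1 read 0.656, 0.573, 1.34 and 1.21 CPM in MEIS1_KO and 0.4997, 0.623, 0.671 and 0.591 CPM in NT_MEIS1ex, a log2 fold change of 0.64 ± 0.29 (adjusted p = 0.185). MEIS1_KO replicates 3 and 4 were above all controls, and replicates 1 and 2 were among them. THBS1 read 1.02, 1.15, 0.967 and 1.25 CPM in MEIS1_KO and 0.964, 1.39, 1.31 and 1.09 CPM in NT_MEIS1ex, a log2 fold change of -0.12 ± 0.19 (adjusted p = 0.769). CRISPLD2, with 4, 1, 0 and 3 reads in MEIS1_KO and 2, 1, 1 and 0 reads in NT_MEIS1ex, was too rare to enter the fit, and no difference was detectable at this depth.

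Beside these values, the summed level of the 15 monocyte markers, most of it LYZ, was 6974 to 7334 CPM in MEIS1_KO and 3312 to 4964 CPM in NT_MEIS1ex, and 8 of the 11 markers tested rose. The summed interferon-response genes were at 281 to 442 CPM in MEIS1_KO and 182 to 279 CPM in NT_MEIS1ex, with 2 of 12 called higher. Beside both counts, 4.97% of all genes were called higher in MEIS1_KO. Fibroblast markers summed to between 1.55 and 1.75 CPM in MEIS1_KO and 1.04 and 2.20 CPM in NT_MEIS1ex. The part of the monocyte and interferon genes in the members' rise was not tested.

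**Figure D2:**
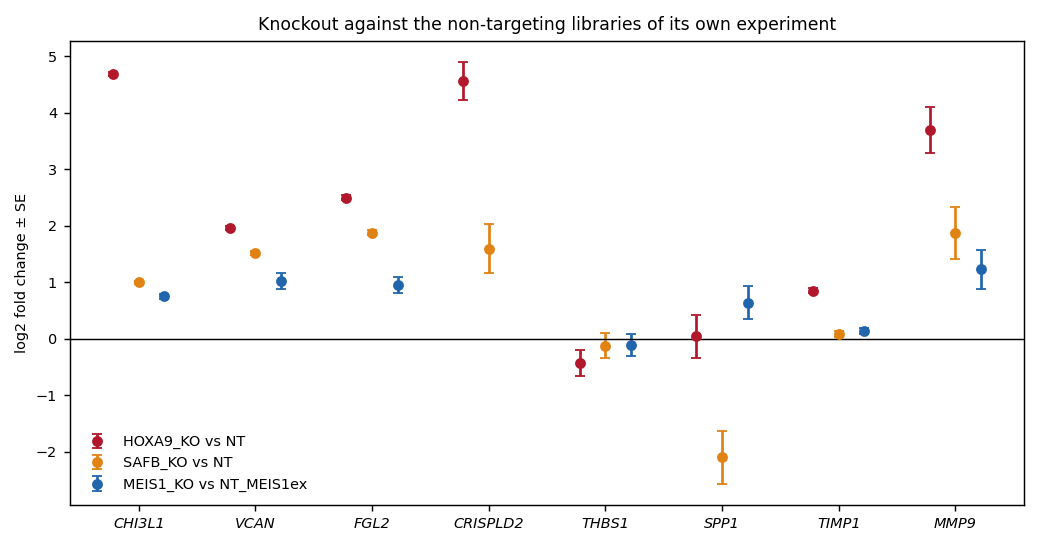
Log2 fold change of each gene (y axis, bars are the SE) for HOXA9_KO against NT, SAFB_KO against NT and MEIS1_KO against NT_MEIS1ex (x axis, genes). CHI3L1 stands at 4.68, 0.99 and 0.75 in this order, VCAN at 1.96, 1.52 and 1.02, and CRISPLD2 has no MEIS1_KO point because it did not pass the filter.

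Set side by side, the 3 knockouts did not order the genes by fold change in the same way. CHI3L1 had the largest fold change of the 8 in HOXA9_KO, within the error of CRISPLD2, whereas in SAFB_KO its log2 fold change of 0.99 was below those of VCAN, FGL2, CRISPLD2 and MMP9. VCAN and FGL2 had the most similar profiles of any pair of members, with a root mean square difference of 0.28 over the 17 libraries on the log2 scale, each gene centred on the controls of its own experiment. This is a description, since levels in HOXA9_KO and SAFB_KO chose the members, and differences between the knockouts were not tested.

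Per kilobase of exon, the members fell into an abundant and a rare set of 4 genes each in all 5 groups. CHI3L1, FGL2, TIMP1 and VCAN ranged between 5.70 and 561 CPM per kilobase as group means, and MMP9, CRISPLD2, SPP1 and THBS1 between 0.00456 and 0.746 CPM per kilobase. In HOXA9_KO the order was CHI3L1 at 561, FGL2 at 58.7, TIMP1 at 47.7 and VCAN at 38.1 CPM per kilobase, and no library of one overlapped those of the next. In SAFB_KO it was CHI3L1 at 43.5, FGL2 at 38.2, VCAN at 28.2 and TIMP1 at 28.1 CPM per kilobase, with VCAN and TIMP1 overlapping. In NT, TIMP1 led at 26.5 CPM per kilobase, followed by CHI3L1 at 21.9, FGL2 at 10.4 and VCAN at 9.82, with FGL2 and VCAN overlapping.

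In the MEIS1 experiment CHI3L1 led in both groups. It stood at 119.8 CPM per kilobase in MEIS1_KO and 71.4 in NT_MEIS1ex, and TIMP1 came second with 49.6 in MEIS1_KO and 45.02 in NT_MEIS1ex. VCAN was at 13.2 CPM per kilobase in MEIS1_KO and 6.53 in NT_MEIS1ex, and FGL2 at 10.97 in MEIS1_KO and 5.70 in NT_MEIS1ex; the 2 genes overlapped only in NT_MEIS1ex. Among the rare genes, MMP9 led in HOXA9_KO with 0.746 CPM per kilobase and in SAFB_KO with 0.215, where it overlapped THBS1, while SPP1 led in NT with 0.290. SPP1 also led the rare genes in MEIS1_KO with 0.406 CPM per kilobase, overlapping MMP9, and in NT_MEIS1ex with 0.257.

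**Figure D3:**
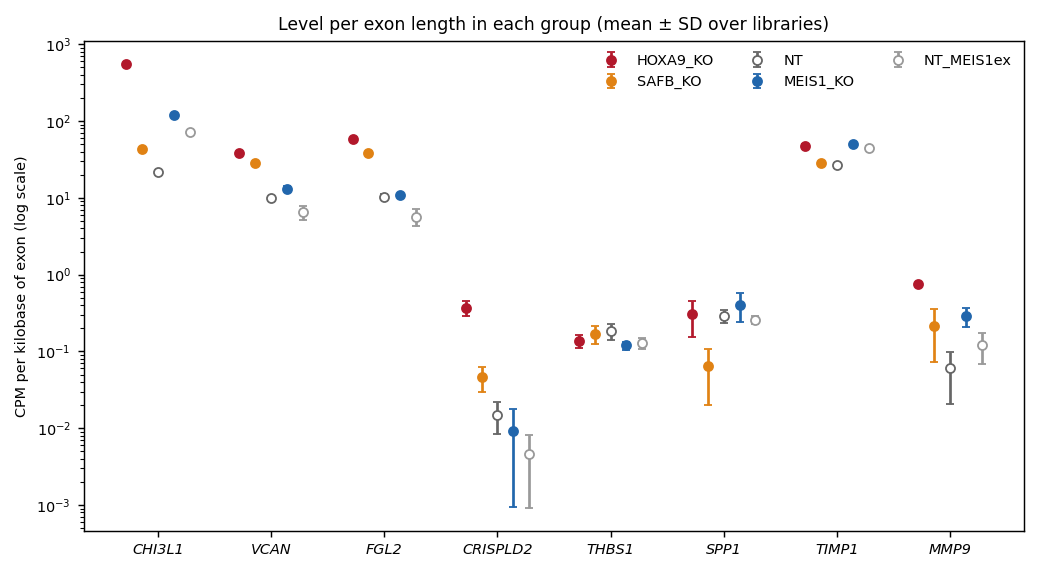
Mean level of each gene per kilobase of exon (y axis, log scale, bars are the SD over libraries) in HOXA9_KO, SAFB_KO, NT, MEIS1_KO and NT_MEIS1ex (filled points for knockouts, open points for controls). CHI3L1 spans 561 CPM per kilobase in HOXA9_KO and 21.9 in NT, and CRISPLD2, SPP1, THBS1 and MMP9 stay below 1 CPM per kilobase in all groups.

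The RNA levels of the protease and its inhibitor can be set against each other within each library. They do not give the balance of the secreted proteins, which was not measured. TIMP1 exceeded MMP9 in all 17 libraries, and the median ratio of TIMP1 to MMP9 per kilobase was 63.9 in HOXA9_KO (59.7 to 68.4), 159 in SAFB_KO (76.4 to 292) and 472 in NT (243 to 1225). It was 183 in MEIS1_KO (127 to 229) and 323 in NT_MEIS1ex (277 to 971). The ranges of SAFB_KO and NT overlapped. Each ratio rests on few MMP9 reads, and in HOXA9_KO, SAFB_KO and NT both genes belong to the choice of members. Summed over the 8 genes, the level was 2804 to 2862 CPM in HOXA9_KO, 777 to 799 CPM in SAFB_KO and 304 to 326 CPM in NT. CHI3L1 made up 67.2 to 67.9% of that sum in HOXA9_KO, 18.5 to 19.3% in SAFB_KO and 22.6 to 25.1% in NT. The sum was 708 to 751 CPM in MEIS1_KO and 415 to 478 CPM in NT_MEIS1ex, and the CHI3L1 share overlapped there, at 54.5 to 56.9% in MEIS1_KO and 53.1 to 60.1% in NT_MEIS1ex.

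Genes that act with the members were counted in 6 lists of 170 genes: their receptors, matrix-cleaving proteases, protease inhibitors, family relatives, other matrix and granule glycoproteins, and enzymes that make or handle hyaluronan and chondroitin sulfate. In HOXA9_KO, 123 were tested, of which 67 rose and 25 fell, with a median log2 fold change of 0.29. Of all genes, 27.6% were called higher and 29.9% lower. In SAFB_KO, 57 of 123 rose and 15 fell, with a median of 0.15, against 20.2% higher and 15.3% lower over all genes. In MEIS1_KO, 31 of 118 rose and 4 fell, with a median of 0.10, against 4.97% and 3.84%. Scaling to nuclear protein-coding reads moved the median of all genes to -0.32 in HOXA9_KO and -0.16 in SAFB_KO; 54 listed genes then rose and 39 fell in HOXA9_KO, and 37 rose and 26 fell in SAFB_KO. Over all genes, that scaling gave 2861 higher and 9293 lower calls in HOXA9_KO, against 5207 and 5640 in the reported fit. In SAFB_KO it gave 1712 and 5535, against 3812 and 2886, and in MEIS1_KO 979 and 450, against 783 and 604.

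Of the receptors of the members, 16 of 21 rose and 4 fell in HOXA9_KO (against 27.6% and 29.9% of all genes). LRP1, an endocytic receptor that takes up thrombospondin-1 and MMP9, averaged 26.3 ± 1.33 CPM in HOXA9_KO, 10.3 ± 0.773 CPM in SAFB_KO and 3.17 ± 0.506 CPM in NT (SD, n = 3 each). Its log2 fold change was 3.03 ± 0.09 in HOXA9_KO (adjusted p = 7.90e-32) and 1.67 ± 0.10 in SAFB_KO (adjusted p = 2.65e-19). CD36, the scavenger receptor that binds thrombospondin-1, rose by 1.62 in HOXA9_KO and 0.62 in SAFB_KO on the log2 scale. TLR2 and TLR4, receptors that fragments of matrix proteoglycans can engage, rose by 1.08 and 1.86 in HOXA9_KO and by 0.60 and 0.52 in SAFB_KO. CD63, the TIMP1 partner, rose by 0.93 in HOXA9_KO and 0.50 in SAFB_KO. In SAFB_KO, 11 of 21 receptors rose and 1 fell (against 20.2% and 15.3% of all genes). In MEIS1_KO, 6 of 19 rose and 0 fell (against 4.97% and 3.84% of all genes). LRP1 was at 37.1 ± 3.51 CPM in MEIS1_KO and 23.9 ± 1.11 CPM in NT_MEIS1ex (SD, n = 4 each), a log2 fold change of 0.64 ± 0.07 (adjusted p = 2.02e-05). CD36, TLR4 and TLR2 rose there by 0.67, 0.59 and 0.50.

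Among the proteases, 15 of 24 rose and 3 fell in HOXA9_KO (against 27.6% and 29.9% of all genes). In SAFB_KO 13 rose and 1 fell (against 20.2% and 15.3%), and in MEIS1_KO 7 rose and 1 fell (against 4.97% and 3.84%). MMP2, gelatinase A, which cleaves denatured collagen as MMP9 does, averaged 26.3 ± 0.631 CPM in HOXA9_KO, 6.67 ± 0.609 CPM in SAFB_KO and 3.14 ± 0.400 CPM in NT (SD, n = 3 each). The log2 fold changes were 3.06 ± 0.09 (adjusted p = 2.92e-32) and 1.09 ± 0.11 (adjusted p = 3.11e-12). In MEIS1_KO, MMP2 averaged 22.1 ± 2.14 CPM, against 13.7 ± 1.16 CPM in NT_MEIS1ex (log2 fold change 0.69 ± 0.08, adjusted p = 4.44e-05). Cathepsin S (CTSS) rose by 1.04 in HOXA9_KO and 0.40 in SAFB_KO, and neutrophil elastase (ELANE) by 0.97 and 0.21. The heparan sulfate cleaving enzyme HPSE rose by 1.60 in HOXA9_KO, 0.74 in SAFB_KO and 0.63 in MEIS1_KO. The membrane metalloproteinase MMP25 rose by 1.88, 1.32 and 0.59 in the same order. Cathepsin G (CTSG), a granule protease of immature myeloid cells, fell by 1.32 in HOXA9_KO and 0.40 in MEIS1_KO. Its difference of -0.12 in SAFB_KO was not called.

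Inhibitors of proteases moved in the same 3 comparisons: 10 of 15 rose and 2 fell in HOXA9_KO (against 27.6% and 29.9% of all genes). In SAFB_KO 10 rose and 2 fell (against 20.2% and 15.3%), and in MEIS1_KO 8 of 14 rose and 1 fell (against 4.97% and 3.84%). SERPINB1, an inhibitor of neutrophil serine proteases, rose by 1.36 in HOXA9_KO and 0.50 in SAFB_KO. Cystatin C (CST3) rose by 1.92 in HOXA9_KO and 1.07 in SAFB_KO, at 271 ± 10.5 CPM and 150 ± 4.08 CPM against 71.5 ± 7.06 CPM in NT. SLPI, the secretory leukocyte protease inhibitor, rose by 0.93 in HOXA9_KO and 0.67 in MEIS1_KO. The broad inhibitor A2M rose by 1.39 in HOXA9_KO, 0.45 in SAFB_KO and 0.83 in MEIS1_KO. The TIMP1 relative TIMP2 rose by 0.47, 0.15 and 0.35 in the same order. CST7, an inhibitor of cathepsins in leukocytes, fell by 0.93 to 9.53 ± 0.824 CPM in MEIS1_KO, against 18.1 ± 2.53 CPM in NT_MEIS1ex. CST7 also fell by 0.32 in SAFB_KO and was not called in HOXA9_KO.

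Family relatives of the members showed 6 of 10 higher and 2 lower in HOXA9_KO (against 27.6% and 29.9% of all genes). In SAFB_KO 7 of 10 were higher and 0 lower (against 20.2% and 15.3%). In MEIS1_KO 3 of 8 were higher and 0 lower (against 4.97% and 3.84%). CHI3L2, the chitinase-like paralog of CHI3L1, averaged 5.41 ± 0.447 CPM in HOXA9_KO, 2.58 ± 0.229 CPM in SAFB_KO and 1.38 ± 0.128 CPM in NT. It rose by 1.96 ± 0.16 in HOXA9_KO (adjusted p = 1.36e-15), 0.90 ± 0.17 in SAFB_KO (adjusted p = 2.18e-05) and 0.77 ± 0.13 in MEIS1_KO (adjusted p = 0.000897) on the log2 scale. GLIPR1 and GLIPR2, which share the CAP domain of CRISPLD2, rose in all 3 comparisons, by 0.45 and 1.27 in HOXA9_KO, 0.28 and 0.46 in SAFB_KO, and 0.41 and 0.35 in MEIS1_KO. THBS2, the paralog of THBS1, rose by 1.01 in HOXA9_KO and 0.63 in SAFB_KO. THBS4 rose by 0.28 in SAFB_KO, a call lost when libraries were scaled to nuclear protein-coding reads (adjusted p = 0.212) or without SAFB_KO replicate 2 (adjusted p = 0.164).

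The other matrix and granule glycoproteins were mixed: 12 of 32 rose and 8 fell in HOXA9_KO (against 27.6% and 29.9% of all genes). In SAFB_KO 11 rose and 6 fell (against 20.2% and 15.3%), and in MEIS1_KO 7 of 31 rose and 0 fell (against 4.97% and 3.84%). SRGN, the serglycin core protein that packs proteases into granules, averaged 6391 ± 170.4 CPM in HOXA9_KO, 3270 ± 123 CPM in SAFB_KO and 1635 ± 20.1 CPM in NT. It rose by 1.97 in HOXA9_KO and by 0.9996 in SAFB_KO. LAMC1, a laminin chain, rose by 1.56 in HOXA9_KO and 0.77 in SAFB_KO, LGALS3 (galectin-3) by 1.70 and 0.62, and EMILIN2 by 1.18 and 0.74. PLXDC2 rose by 2.16 in HOXA9_KO and 0.67 in SAFB_KO. LGALS3BP, a galectin-binding secreted protein that interferon also induces, fell by 2.24 in HOXA9_KO and 2.33 in SAFB_KO. Any part of interferon in this fall was not tested. In HOXA9_KO, COL24A1 fell by 1.67, ECM1 by 1.47 and FN1 by 1.28. In MEIS1_KO, ANXA2, LGALS3, PLXDC2 and NID1 rose by between 0.40 and 0.50.

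Genes for hyaluronan and chondroitin sulfate, the sugars that versican carries or binds, were called both ways in the first experiment. In HOXA9_KO, 8 of 21 rose (38.1%) and 6 fell (28.6%), against 27.6% and 29.9% of all genes. In SAFB_KO, 5 rose and 5 fell (23.8% each), against 20.2% and 15.3% of all genes. In MEIS1_KO, 0 of 22 rose and 2 fell (9.09%), against 4.97% and 3.84% of all genes. CSGALNACT2, which starts chondroitin chains, rose by 1.004 in HOXA9_KO and 0.37 in SAFB_KO, and CHPF, a chondroitin polymerising factor, by 0.79 and 0.73. HMMR, a hyaluronan receptor that is also a mitotic protein, fell by 1.03 in HOXA9_KO and 0.15 in SAFB_KO. CHST11 and CHST12 fell in SAFB_KO by 0.096 and 0.30. The chondroitin sulfotransferases CHST11 and CHST12 fell by 0.28 and 0.24 in MEIS1_KO, and the CHST12 call was lost without MEIS1_KO replicate 1 (adjusted p = 0.0642) or 2 (0.0638), or NT_MEIS1ex replicate 3 (0.0559).

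**Figure D4:**
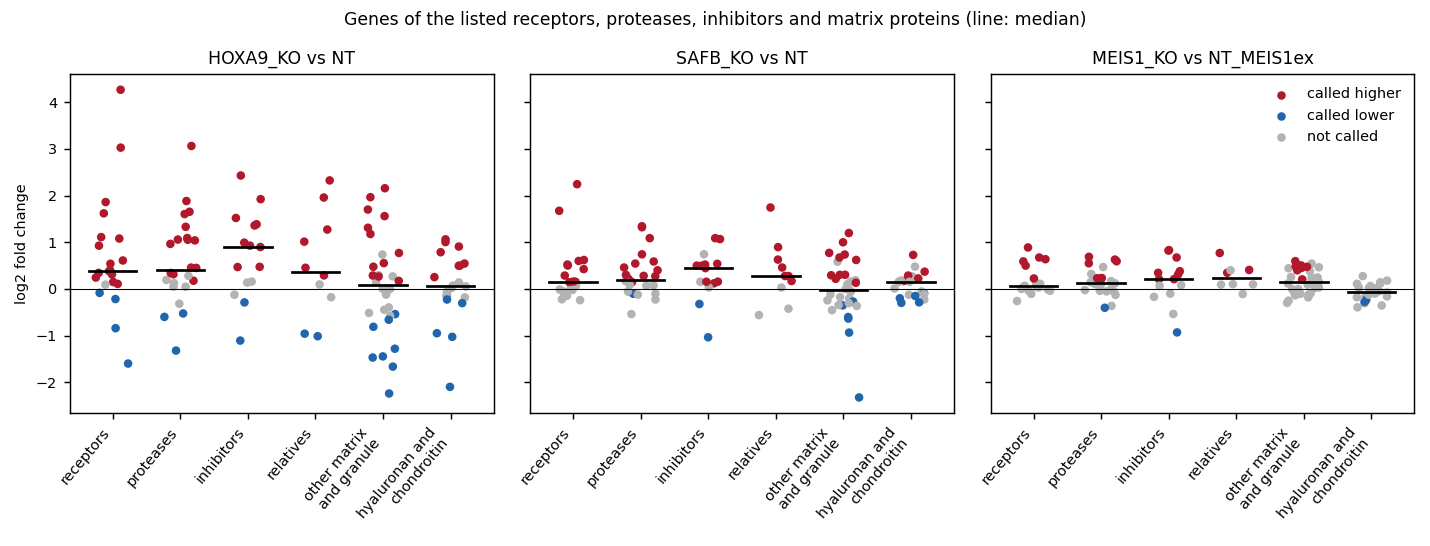
Log2 fold change (y axis) of the listed genes in each of the 6 lists (x axis), for HOXA9_KO against NT, SAFB_KO against NT and MEIS1_KO against NT_MEIS1ex. Points are genes, coloured where called higher or lower at an adjusted p under 0.05, and lines are medians; the inhibitors have the highest medians of the 6 lists in HOXA9_KO and SAFB_KO, at 0.90 and 0.45.

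The genes whose pattern over the 17 libraries was nearest to each member were found among 10792 protein-coding genes, as the root mean square difference of centred log2 (CPM + 0.5) values. For CHI3L1 they were SEMA6B at 0.40, GPNMB at 0.48 and CYP27A1 at 0.50, with a median of 2.02 over all candidates. VCAN was nearest to IGSF6 at 0.13, NAIP at 0.15 and MPEG1 at 0.19, with a median of 1.15. FGL2 was nearest to LYZ at 0.20, MPEG1 at 0.22 and THBD at 0.24, with a median of 1.38. MPEG1 thus stood among the nearest 3 for both VCAN and FGL2.

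CRISPLD2 was nearest to CTSD at 0.21, PAQR8 at 0.23 and CD38 at 0.24, and MMP9 to FRMD3 at 0.18, TLR4 at 0.19 and MGAT4A at 0.20, with medians of 1.05 and 0.87 over all candidates. The added 0.5 CPM flattens the patterns of such rare genes. TIMP1 was nearest to PFKFB3 at 0.08, with a median of 0.37. THBS1 was nearest to PSD3 at 0.12, and SPP1 to SLC6A12 at 0.25, with medians of 0.29 and 0.53, so for both genes the nearest pattern was less set apart from the rest.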

How the data were processed

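RNA of 17 MOLM13 libraries was made into ribosome-depleted, directional libraries and read in pairs on a HiSeq instrument, per the labels' protocols. The submitters' processing notes name hg38 as the genome, with STAR 2.7.10a, HTSeq 1.99.2, Trim Galore and bedtools. The authors deposited raw counts per gene for each library, under 58278 identifiers; the count files of the MEIS1 experiment have the same layout and are of the same unit. Symbols and coordinates come from GENCODE 29, which holds 57940 of the identifiers. Reads outside genes (6.07 to 18.1%) and ambiguous reads (6.09 to 12.2%) stayed out of library sizes. The members and gene lists were chosen with earlier results of these data known.

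Each experiment was fitted with edgeR 4.0.16 (R 4.3.3): filterByExpr (minimum count 10), TMM scaling, a quasi-likelihood test and Benjamini-Hochberg adjustment over all genes tested, called at an adjusted p under 0.05. CPM values are TMM-scaled. The scripts were tested on simulated data. All members are named; of each list, up to 4 called genes with a mean of at least 2 CPM and the smallest p; for likeness, up to 3 nearest genes, some of which are not reported here. The alternatives were RLE scaling, scaling to nuclear protein-coding reads, other filters, DESeq2 1.42.0, limma-voom (limma 3.58.1), a replicate block, other sets of libraries and leaving out each replicate. For the members with few reads, counting error is a large part of the spread between libraries.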

Additional observations from a re-analysis of the deposited data

How the results depend on the processing

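Over all summary results and alternatives, 150 values stayed within the tolerance (1.5 times for a count, 1 SD between replicates for a median) and 6 moved. The cause was not tested unless given. Counts took higher and lower calls together, so this tolerance does not see a shift between directions. Nuclear protein-coding scaling stayed within it for HOXA9_KO, though calls went from 5207 higher and 5640 lower to 2861 and 9293. The members' median log2 fold change in HOXA9_KO was 1.97 with libraries scaled to nuclear protein-coding reads, against 2.23 as reported. In SAFB_KO it was 0.99 with SAFB_KO and NT alone in the fit, where CRISPLD2 did not pass the filter, against 1.26. The number of genes called in MEIS1_KO was 2144 with all 17 libraries in 1 fit, against 1387, and ranged between 751 and 1772 when 1 library was left out; it was 873 without MEIS1_KO replicate 2, 751 without MEIS1_KO replicate 3 and 884 without NT_MEIS1ex replicate 4. With MMP9 included, which the results above only describe, the number of members past the threshold in MEIS1_KO was 4 in the reported fit. It was 3 to 5 over the alternatives, with TIMP1 past the threshold under nuclear protein-coding scaling. SPP1 in HOXA9_KO ranged between -0.41 and 0.31 when 1 library was left out, lowest without HOXA9_KO replicate 1. TIMP1 in SAFB_KO turned to -0.054 with nuclear protein-coding scaling. The number of listed genes called ranged between 76 and 95 in HOXA9_KO, 59 and 75 in SAFB_KO and 29 and 40 in MEIS1_KO. DESeq2 gave MMP9 no adjusted p in MEIS1_KO, and a minimum mean of 2 CPM left it out. Same-numbered libraries did not deviate together (correlations of -0.08 to 0.11 in the first experiment and -0.37 to 0.15 in the second), so the reported fits were not paired. With so few libraries, this cannot exclude that same-numbered libraries were prepared together. With the replicate block, 10787 genes were called in HOXA9_KO, 6718 in SAFB_KO and 1195 in MEIS1_KO, and 4 members, MMP9 included, in MEIS1_KO. Depth limits CRISPLD2, MMP9, SPP1 and THBS1, which rest on at most 150 reads in any library.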
